A study of Mus musculus with 70 samples.

Results

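CT26.2 cells given interferon beta (IFNb) were compared with unstimulated CT26.2 cells over all genes. The comparison uses the 3 libraries labelled CT26.2 with IFNb and the 3 labelled CT26.2 with no stimulation, 6 of the 70 libraries of the series, and 16147 of the 35197 genes in the table had enough counts to be tested. CT26.2 is a mouse colorectal cancer cell line of BALB/c genotype. Stimulated cultures received 1000 activity units per mL of IFNb for 48 h, and all cultures, controls included, grew in DMEM with fetal bovine serum, penicillin and streptomycin. The series treated 8 mouse cancer lines in the same way with IFNb or with interferon gamma (IFNg, 100 ng per mL), and stranded libraries were made from total RNA. Groups used for comparison are CT26.2 with IFNg (3 libraries), MC38.7, a colorectal line of C57BL/6 genotype (3 libraries with IFNb and 3 unstimulated), Renca, a renal line that shares the BALB/c genotype (3 with IFNb and 2 unstimulated), and the mean of the other 7 lines. Each group is 1 cell line at 1 dose and 1 time, and nothing in the labels says that its libraries came from separate cultures, so the spread behind each p-value may be technical.

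Type I interferons such as IFNb bind a receptor made of IFNAR1 and IFNAR2, whose kinases JAK1 and TYK2 activate the transcription factor complex ISGF3, of which STAT2 and IRF9 are parts. ISGF3 binds the interferon-stimulated response element (ISRE) in promoters of antiviral genes. Type II interferon, IFNg, uses another receptor and acts mainly at gamma-activated sites (GAS), with strong effects on guanylate-binding proteins and on antigen presentation. IRF7 is itself induced, and USP18 and SOCS1 damp the pathway.

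Estimated counts per library were 6306363, 3672609 and 1898464 for IFNb replicates 1 to 3 and 7688257, 4451334 and 4715147 for the unstimulated replicates. IFNb replicate 3 was therefore the shallowest of the 6, and a count of 3 over the whole group corresponded to 0.25 CPM (counts scaled to each library) with IFNb and 0.179 CPM without. The colon epithelial markers Epcam (0 counts in all 6 libraries), Cdh1 (0 unstimulated, 2 with IFNb), Cdx2 (3 and 2) and Krt8 (1 and 0) were at or near 0. Krt18 (29.6, 34.4 and 36.5 CPM unstimulated) and Krt20 (7.76, 5.39 and 6.53 CPM) were detected, and the mesenchymal markers Vim (2331, 2211 and 2182 CPM) and Fn1 (3651, 3344 and 3016 CPM) were high, so the expression of this line does not show the defining epithelial genes of its labelled tissue. Summed over each list, leukocyte markers stood at 13.2 to 20.4 CPM, endothelial markers at 1.41 to 8.01 CPM and melanocyte markers at 12.03 to 17.9 CPM over the 6 libraries. By edgeR no member of the colon epithelial (16 tested), mesenchymal (10), leukocyte (6), endothelial (3) or melanocyte (7) lists passed the test between the groups, nor did any by DESeq2 or limma-voom; at an unadjusted p under 0.05 these lists held 1, 2, 1, 0 and 0 members. Unstimulated CT26.2 replicate 1, CT26.2 IFNb replicate 1 and the unstimulated YUMMER1.7 libraries stand apart. Unstimulated CT26.2 replicate 1 was the highest of the 6 in glycolysis and hypoxia genes (12250.0 CPM summed, against 6484 to 8952 in the other 5). IFNb replicate 1 was the lowest of the 6 in mitochondrially encoded genes (22890.0 CPM summed, against 34530.0 to 42840.0 in the other 5). The unstimulated libraries of YUMMER1.7, a melanoma line, carried antiviral genes at 10930.0 to 12940.0 CPM, above the 10030.0 to 10580.0 CPM of its IFNb libraries, so comparisons with the mean of 7 lines are also given without that line.

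The promoters of 4 genes on which the results turn are shown here because they hold the ISRE core and because the genes behaved differently: Ifit3 and Gbp3 rose several-fold, Oas1a started high and rose less than 2-fold, and Trim12a fell. Each window runs from 250 bases before to 50 bases after the RefSeq start site, is written 5′ to 3′ on the gene's strand from GRCm38.p6, and has every match to the ISRE core, TTTC followed by any 2 bases and TTTC again, or to its reverse complement, GAAA followed by any 2 bases and GAAA again, in capitals (overlapping matches run together). The reference is C57BL/6 and CT26.2 is BALB/c, so the bases in these cells may differ. The windows are chr19:34583279-34583578 on the plus strand, chr3:142559794-142560093 on the plus strand, chr5:120907476-120907775 on the minus strand and chr7:104315446-104315745 on the minus strand.
Ifit3: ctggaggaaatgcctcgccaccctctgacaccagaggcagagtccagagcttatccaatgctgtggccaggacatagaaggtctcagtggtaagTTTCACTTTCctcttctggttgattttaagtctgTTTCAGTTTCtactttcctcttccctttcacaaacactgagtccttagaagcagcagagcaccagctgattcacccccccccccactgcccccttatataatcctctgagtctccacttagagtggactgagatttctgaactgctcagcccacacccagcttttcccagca
Gbp3: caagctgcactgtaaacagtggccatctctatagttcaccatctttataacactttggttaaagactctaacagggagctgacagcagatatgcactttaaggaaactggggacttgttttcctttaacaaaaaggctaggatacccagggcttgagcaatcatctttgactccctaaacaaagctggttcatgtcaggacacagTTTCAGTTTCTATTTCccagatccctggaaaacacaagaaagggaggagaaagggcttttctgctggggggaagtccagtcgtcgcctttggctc
Oas1a: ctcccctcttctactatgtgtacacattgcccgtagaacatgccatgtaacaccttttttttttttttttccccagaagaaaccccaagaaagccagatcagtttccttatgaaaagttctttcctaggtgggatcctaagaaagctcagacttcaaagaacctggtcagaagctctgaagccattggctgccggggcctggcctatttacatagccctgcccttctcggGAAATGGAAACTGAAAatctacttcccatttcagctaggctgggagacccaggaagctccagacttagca
Trim12a: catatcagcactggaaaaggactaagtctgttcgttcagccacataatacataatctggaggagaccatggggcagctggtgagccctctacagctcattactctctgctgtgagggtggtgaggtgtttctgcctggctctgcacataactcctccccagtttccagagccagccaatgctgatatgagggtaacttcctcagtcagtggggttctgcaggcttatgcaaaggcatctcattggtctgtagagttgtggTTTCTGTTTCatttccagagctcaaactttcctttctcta

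Ifit3, Gbp3 and Oas1a each held 2 matches, the first beginning 156, 45 and 20 bases before the start site, and Trim12a held 1, beginning 10 bases after it. Another window of Gbp3, at chr3:142560106-142560405 and not shown, held none. Of 27025 genes with 1 or more windows, 3.99% held an ISRE core in at least 1 of them. Of the 40 genes that rose at least 2-fold with IFNb, 29 had a window and 13 of these (44.8%) held one. Of all 318 genes that rose, 52 of 248 with a window (21%) held one, and of the 150 that fell 10 of 122 (8.2%). The GAS core TTCNNNGAA, searched on both strands (the pattern is its own reverse complement), was found for 9.55% of all genes with a window, for 2 of the 29 (6.9%) and for 29 of the 248 (11.7%). Among the 395 genes that rose at least 2-fold in MC38.7 and did not pass in CT26.2, 36 of 264 with a window (13.6%) held an ISRE core; among the 135 that rose at least 2-fold in MC38.7 and also rose in CT26.2 it was 42 of 104 (40.4%). A match is a description of the letters in the window and was not tested as a binding site.

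IFNb raised antiviral and interferon-inducible GTPase genes in CT26.2 by less than 8-fold. Ifi44l rose 7.66-fold, Ifit3 5.72-fold and Mx1 5.70-fold, while Isg15 and Oasl2, which were already high without stimulation, rose 1.44- and 1.53-fold. The genes that fell included the interferon-inducible Ifi27 and the chemokine gene Ccl5. By the quasi-likelihood test of edgeR, adjusted after Benjamini and Hochberg, 468 of 16147 genes passed at an adjusted p of 0.05 (2.9%), 318 higher (1.97%) and 150 lower (0.929%). "Rose" and "fell" below mean that a gene passed this test. A change of at least 2-fold as well was found for 59 genes (0.365%), 40 higher (0.248%) and 19 lower (0.118%). The median log2 change of all tested genes was 0. In these bulk libraries a change in the share of responding cells and a change within each cell cannot be told apart. With the 6 libraries fitted alone, 11041 genes were tested, 100 rose and 14 fell, and 32 changed at least 2-fold, 2 of them lower. A gene outside the 11041 could not be called in that fit. With no filter on low counts 27399 genes were tested and 133 changed at least 2-fold. Without IFNb replicate 1 the number of genes that rose was 179, and without unstimulated replicate 1 the number that fell was 92, 9 of them at least 2-fold.

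The antiviral effectors, 50 genes that block steps of viral replication or mark infected cells, were the list with the most changes: 39 rose and 1 fell, 9 and 1 of them at least 2-fold, and their median log2 change was 0.58. The 3 IFNb libraries lay above the 3 unstimulated ones for 39 of the 50 and below for 1; over all genes tested such groups lay apart for 5.92% above and 5.36% below. Ifi44l, an interferon-induced gene of the Ifi44 family (chromosome 3, 151758737 to 151762892), was at 6.05, 3.37 and 4.85 CPM in the unstimulated libraries and 28.7, 41.7 and 44.2 CPM with IFNb, a log2 change of 2.94 ± 0.25 (SE; adjusted p 2.6e-08). All 3 IFNb libraries were above all unstimulated ones, and IFNb replicate 1 was the lowest of the treated. Ifit3, whose protein works with IFIT1 at viral RNA (chromosome 19, 34583531 to 34588731), went from 23.4, 20.5 and 22.97 CPM to 117, 137 and 136 CPM (log2 2.52 ± 0.14, adjusted p 3.7e-21). The groups did not overlap and the spread within each was small. Its near copy Ifit3b went from 11.4, 11.01 and 12.7 CPM to 49.6, 60.2 and 47.3 CPM (2.17 ± 0.15), and how reads were split between the pair is uncertain. Mx1, a GTPase against influenza-type viruses (chromosome 16, 97447035 to 97462907), stood at 3.68, 2.70 and 2.11 CPM unstimulated and 12.9, 23.3 and 16.8 CPM with IFNb (2.51 ± 0.30, adjusted p 9.9e-09). Many inbred mouse strains carry a disrupted Mx1, and the level of transcript says nothing of the protein.

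Other antiviral genes rose by smaller factors from higher starting levels. Ifit1, which binds RNA lacking a host cap, was at 178, 149 and 146 CPM unstimulated and 316, 357 and 338 CPM with IFNb (1.08 ± 0.10). Rsad2, which encodes viperin, went from 38.4, 22.9 and 20.02 CPM to 69.99, 79.4 and 73.1 CPM (1.38 ± 0.17), with unstimulated replicate 1 the highest of its group. Oas1a, one of the enzymes that make oligoadenylates to activate RNase L, went from 217, 204 and 197 CPM to 346, 347 and 398 CPM (0.81 ± 0.09, adjusted p 3e-09). The groups lay apart for each of these genes. Oas1a and Oas1g (log2 1.03 ± 0.11) are close copies, so their split is uncertain. Isg15, the ubiquitin-like modifier, was at 315, 297 and 298 CPM and 398, 442 and 478 CPM (0.52 ± 0.10), and Oasl2 at 583, 522 and 518 CPM and 663, 941 and 895 CPM (0.61 ± 0.09). Both rose without reaching 2-fold. Among antiviral genes that did not pass, Apobec3, a cytidine deaminase acting on retroviruses, was at 484, 438 and 521 CPM unstimulated and 387, 402 and 473 CPM with IFNb (adjusted p 0.17), and Zc3hav1, the zinc-finger antiviral protein, had a log2 change of 0.08 ± 0.07 (adjusted p 0.75).

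**Figure D1:**
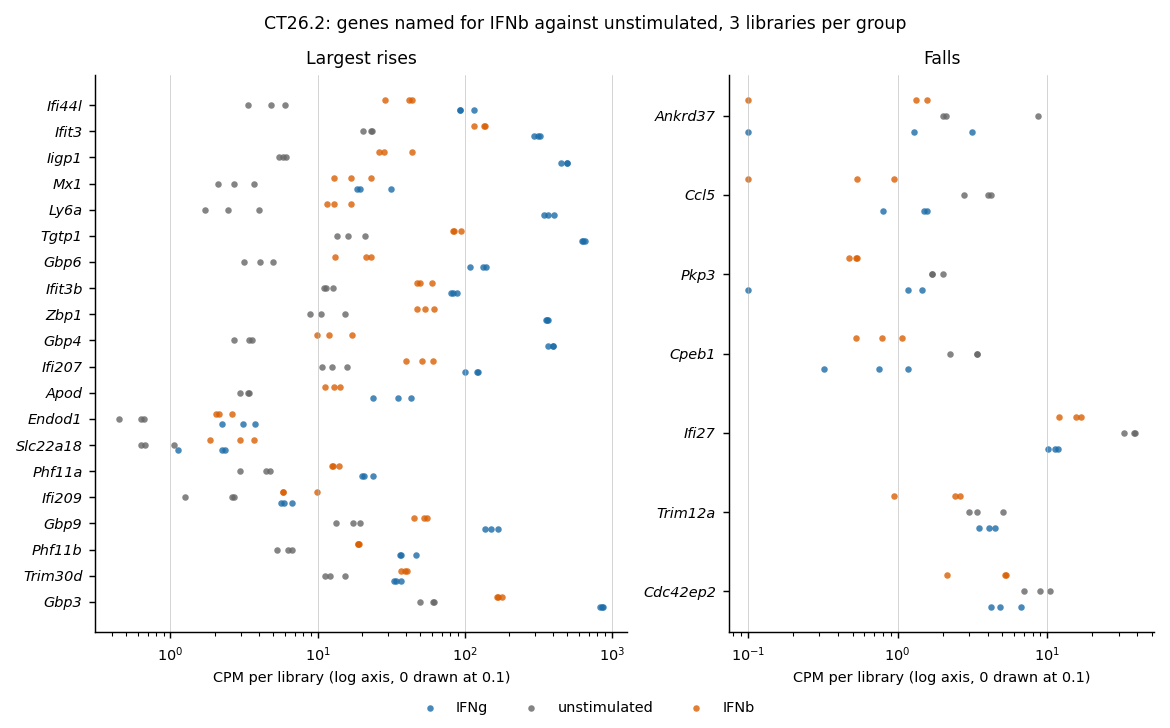
CPM (horizontal log axis) of the genes with the largest rises (left) and of the falls (right) in CT26.2, 1 point per library, 3 libraries each for unstimulated cells, IFNb and IFNg; a value of 0 is drawn at 0.1. In each row the IFNb points lie to the right of the unstimulated points on the left panel and to the left of them on the right panel, as the rule that chose the genes required, and for Gbp3 the IFNg points lie beyond both.

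The guanylate-binding proteins and immunity-related GTPases, which attack the vacuoles of intracellular pathogens, rose in 13 of 19 tested members and fell in none, by edgeR, DESeq2 and limma-voom alike; 7 rose at least 2-fold and the median log2 change was 0.97. At an unadjusted p under 0.05 none was lower and 16 were higher. Tgtp1 (chromosome 11, 48985327 to 48994172) went from 21.2, 13.5 and 16.02 CPM to 83.3, 94.9 and 85.2 CPM (2.33 ± 0.18), and its near copy Tgtp2 did not pass. Iigp1 went from 5.79, 6.07 and 5.48 CPM to 28.1, 43.9 and 26.3 CPM (2.51 ± 0.19). Gbp3 (chromosome 3, 142560026 to 142573209) went from 60.5, 62.3 and 49.7 CPM to 165, 180.5 and 168 CPM (1.57 ± 0.08, adjusted p 4.2e-22), with narrow groups that lay far apart. Gbp6 (2.33 ± 0.33), Gbp4 (2.02 ± 0.24) and Gbp9 (1.64 ± 0.15) also rose at least 2-fold, from levels of 4.06, 3.23 and 16.7 CPM. Gbp6 and Gbp10 are close in sequence, and Gbp4 and Gbp9 overlap in the annotation, so their values are uncertain to that extent.

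Of 25 genes that sense foreign nucleic acids or relay the alarm, 9 rose, 3 of them at least 2-fold; 12 had IFNb libraries above all unstimulated ones. Zbp1, a sensor of Z-form nucleic acid that can trigger necroptosis, went from 15.4, 10.6 and 8.85 CPM to 47.7, 61.8 and 53.6 CPM (2.15 ± 0.14, adjusted p 1e-16). Trim30d went from 15.3, 12.1 and 11.2 CPM to 39.4, 40.4 and 36.8 CPM (1.57 ± 0.14). Tlr3, the endosomal receptor for double-stranded RNA, rose from 29.1, 28.1 and 26.8 CPM to 62.1, 54.02 and 54.7 CPM (1.04 ± 0.13), and Ifih1, the cytosolic sensor MDA5, rose from 104, 89.01 and 71.5 CPM to 160.1, 151 and 144 CPM (0.78 ± 0.09). For all 4 genes the groups did not overlap. Ifi203 (mean 344 CPM unstimulated and 385 CPM with IFNb) and Mndal (256 and 248 CPM), abundant members of the PYHIN family, did not pass. Outside the lists, the rule for the largest rises also named Ifi207 (2.01 ± 0.17) and Ifi209 (1.66 ± 0.34) of the PYHIN family, Phf11a (1.67 ± 0.37) and its relative Phf11b (1.62 ± 0.22), the lipocalin gene Apod (from 3.42, 3.37 and 2.95 CPM to 12.9, 11.2 and 14.2 CPM; 1.94 ± 0.23), Endod1 (1.84 ± 0.45) and the transporter gene Slc22a18 (1.71 ± 0.39). Endod1 lost its call without IFNb replicate 1 (adjusted p 0.064) or unstimulated replicate 1 (0.053), and Slc22a18 without IFNb replicate 1 (0.13). In the list of Slfn, Ly6 and related genes 6 of 11 rose: Ly6a, the stem-cell antigen Sca-1, from 1.71, 2.47 and 4.004 CPM to 16.8, 12.8 and 11.6 CPM (2.50 ± 0.27), and Slfn2, linked to T cell quiescence, from 8.94, 7.87 and 6.96 CPM to 21.03, 29.4 and 22.1 CPM (1.57 ± 0.20), as did Slfn8 (0.91 ± 0.12) and Lgals3bp (0.68 ± 0.06).

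Of 28 tested genes of antigen presentation by MHC class I 18 rose, 1 of them (Psmb9) at least 2-fold, with a median log2 change of 0.64; the count was 13 without IFNb replicate 2 and without unstimulated replicate 1, and 11 with the 6 libraries fitted alone. Psmb9, a catalytic subunit of the immunoproteasome, went from 12.2, 13.04 and 14.3 CPM to 31.2, 27.6 and 29.97 CPM (1.19 ± 0.15, adjusted p 3.9e-08). The heavy chain gene H2-K1 went from 307, 317 and 303 CPM to 538, 556 and 615 CPM (0.88 ± 0.08), H2-D1 from 1263, 1290.0 and 1308 CPM to 2225, 2169 and 2256 CPM (0.78 ± 0.06) and the light chain gene B2m from 689.7, 739 and 768 CPM to 1315, 1198 and 1284 CPM (0.79 ± 0.06). In these 4 genes every IFNb library was above every unstimulated one. Tap1, a subunit of the peptide transporter, rose by log2 0.53 ± 0.08. Psmb8 rose by 0.68 ± 0.20 with an adjusted p of 0.049, which the omission of unstimulated replicate 3 alone among the 6 left below 0.05. The chaperones Calr (0.02 ± 0.06) and Canx (-0.09 ± 0.07) did not pass. BALB/c cells carry other H2 alleles than the C57BL/6 reference, and heavy chain genes resemble each other, so H2 values between genes and between lines are uncertain; its part in these values was not tested. Of 10 tested MHC class II genes none passed by edgeR, DESeq2 or limma-voom, and none had an unadjusted p under 0.05; the invariant chain gene Cd74 was at 1.18, 1.57 and 1.90 CPM unstimulated and 2.20, 1.07 and 1.05 CPM with IFNb.

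Within the pathway itself 4 of 19 receptor and signalling genes rose. Irf7, the transcription factor that amplifies type I interferon output, was at 264, 239.8 and 242 CPM unstimulated and 539, 539 and 552 CPM with IFNb (log2 1.12 ± 0.08, adjusted p 1.6e-15); both groups were tight. Stat2 went from 182, 153 and 148 CPM to 246, 312 and 262 CPM (0.76 ± 0.09), with groups that lay apart. Irf1 rose by 0.48 ± 0.10 and lost its call without IFNb replicate 2 (adjusted p 0.062); with the 6 libraries fitted alone 2 of the 19 rose. Irf9, the DNA-binding part of ISGF3, was at 108, 107 and 94.4 CPM and 109, 106 and 120.4 CPM (0.10 ± 0.08, adjusted p 0.68), with overlapping groups. The receptor genes Ifnar1 (-0.09 ± 0.08) and Ifnar2 (0.14 ± 0.13) and the kinase genes Jak1 (-0.08 ± 0.07) and Tyk2 (-0.15 ± 0.13) did not pass. Of 13 feedback inhibitors 1 rose, Usp18, from 294, 280.5 and 227 CPM to 496, 448 and 441 CPM (0.79 ± 0.09). Socs1 was at 10.3, 6.07 and 7.80 CPM and 11.8, 11.8 and 16.8 CPM (0.59 ± 0.21, adjusted p 0.14): its groups did not overlap, and it did not pass. Ifnb1, the one interferon ligand gene with enough counts to be tested, had 1 count over the unstimulated libraries and 0 with IFNb.

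Among 16 genes of immune checkpoints and evasion, 3 rose. Cd274, which encodes PD-L1, went from 23.02, 22.7 and 24.7 CPM to 38.1, 41.99 and 37.3 CPM (0.74 ± 0.12, adjusted p 9.7e-06), the granzyme B inhibitor gene Serpinb9 from 15.4, 20.01 and 18.1 CPM to 29.97, 32.6 and 27.3 CPM (0.79 ± 0.15) and the galectin gene Lgals9 from 139, 143 and 126 CPM to 200.2, 172 and 177 CPM (0.44 ± 0.07). The groups lay apart in all 3. Of 23 chemokine and cytokine genes 1 rose and 1 fell. Csf1, the macrophage growth factor, was high at the start and went from 1172, 1164 and 1146 CPM to 1510.0, 1389 and 1341 CPM (0.29 ± 0.05). The T cell chemokine gene Cxcl10, usually induced by interferon, was at 8.68, 6.74 and 5.69 CPM unstimulated and 3.92, 4.55 and 9.99 CPM with IFNb (-0.51 ± 0.34, adjusted p 0.61), with overlapping groups. In the cell death list 4 of 26 rose, Casp1 (0.77 ± 0.17), Daxx (0.41 ± 0.10), Xaf1 (0.40 ± 0.10) and Bid (0.40 ± 0.09), each with a call that ended when 1 of the 6 libraries was left out: unstimulated replicate 1 for Casp1 (adjusted p 0.076), IFNb replicate 2 for Daxx (0.094) and Xaf1 (0.23), and IFNb replicate 1 for Bid (0.0765). Unstimulated replicate 2 also ended the calls of Daxx (0.053) and Xaf1 (0.061), and replicate 3 that of Xaf1 (0.058). With the 6 libraries fitted alone none of the 26 rose by edgeR.

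Among genes that fell, Ifi27 and Ccl5 had calls that held without any 1 of the 6 libraries. Ifi27, an interferon-inducible gene of mitochondria and nuclear membrane (chromosome 12, 103434211 to 103440239), went from 38.67, 38.2 and 32.5 CPM to 11.9, 15.5 and 16.8 CPM (-1.39 ± 0.18, adjusted p 7.1e-08); every IFNb library was below every unstimulated one. It was the one antiviral effector that fell. With IFNg the level was 11.4, 10.1 and 11.7 CPM. In MC38.7 Ifi27 rose with IFNb (2.15 ± 0.14) and in Renca it fell (-1.32). The response differed from that of MC38.7 by -3.54 ± 0.23 (adjusted p 1.1e-19) and from that of Renca by -0.08 ± 0.21 (adjusted p 1). The neighbouring Ifi27l2a, of the same family, went the other way, from 57.1, 42.03 and 52.5 CPM to 84.1, 101 and 118 CPM (0.94 ± 0.12). Ccl5, which draws T cells and monocytes, went from 2.76, 4.05 and 4.21 CPM to 0.942, 0.535 and 0 CPM (-2.38 ± 0.45, adjusted p 0.00027), 59 counts against 8; with the 6 libraries fitted alone its adjusted p was 0.0875. In MC38.7 it rose by 2.91 ± 0.21. Trim12a, a relative of the retroviral restriction factor TRIM5, went from 3.02, 3.37 and 5.06 CPM to 0.942, 2.41 and 2.63 CPM (-1.14 ± 0.34, adjusted p 0.049). That call ended without IFNb replicate 1 (log2 -0.61, adjusted p 0.56), without unstimulated replicate 3 (0.26) and without unstimulated replicate 2 (0.065). The gene has close copies, and its response was below that of MC38.7 by -4.45 ± 0.36 (adjusted p 1.9e-15).

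The remaining falls named by the rule were low in abundance. Pkp3, a desmosome plakophilin, went from 1.71, 2.02 and 1.69 CPM to 0.471, 0.535 and 0.526 CPM (-1.81 ± 0.49, adjusted p 0.045) and lost its call without any 1 of the 6 libraries (adjusted p up to 0.22). Cpeb1, which binds the polyadenylation element of mRNAs, went from 2.24, 3.37 and 3.37 CPM to 0.785, 1.07 and 0.526 CPM (-1.78 ± 0.38) and lost its call without IFNb replicate 1 (0.085). Cdc42ep2, an effector of the GTPase CDC42, fell by 1.06 ± 0.25 and lost its call without IFNb replicate 2 (0.12) or unstimulated replicate 1 (0.11). In 10 further called genes with a name, 1 group held 3 counts or fewer. Kremen2 had 8 counts with IFNb and 0 without, Greb1 7 and 0, and Tec 6 and 0. With 3 counts over the group put in place of 0, they were 3.73-, 3.26- and 2.80-fold higher with IFNb. The exact 95% lower limits of the ratio of IFNb to unstimulated, covering counting error only, were 2.39, 2.015 and 1.65. Cgref1 (0 with IFNb, 33 without) and Tmlhe (0 and 12) were 7.87- and 2.86-fold lower with the same replacement. The exact 95% upper limits of their ratios were 0.165 and 0.503. Ratios of IFNb to unstimulated, with exact 95% intervals that cover counting error only, were 0.0666 (0.00781 to 0.256) for Car9, 0.147 (0.0166 to 0.61) for Ankrd13d, 0.168 (0.0324 to 0.55) for Pdzd2, 0.0608 (0.00148 to 0.374) for Vmn1r216 and 0.0699 (0.00169 to 0.437) for Vwa1. None of these 10 calls held without each library in turn: of the 6 omissions, 4 kept the call of Cgref1, Pdzd2 and Vmn1r216, 3 that of Car9 (adjusted p 0.32 without unstimulated replicate 1), 2 those of Kremen2, Greb1, Ankrd13d and Vwa1, and 1 those of Tec and Tmlhe.

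The genes of glycolysis and hypoxia, targets of the oxygen-sensing factor HIF-1 among them, were lower with IFNb, but in CT26.2 the difference rested largely on 1 library. Of 21 tested, 13 fell by edgeR, 14 by DESeq2 and 10 by limma-voom, and none rose by any of these tools (in edgeR at an unadjusted p under 0.05, 18 were lower and 0 higher), with a median log2 change of -0.47. The groups lay apart, with IFNb below, for 7 of the 21. Without unstimulated replicate 1, 2 of the 21 fell; without IFNb replicate 1 or replicate 2, 6 fell; and with the 6 libraries fitted alone, 0. Bnip3, a mitophagy receptor, was at 222, 84.97 and 57.96 CPM unstimulated and 26.99, 24.1 and 67.8 CPM with IFNb (-1.89 ± 0.34, adjusted p 9.6e-05; 0.074 without unstimulated replicate 1). Pdk1, which encodes a pyruvate dehydrogenase kinase, was at 104, 49.9 and 39.4 CPM and 26.4, 28.9 and 47.3 CPM (-1.11 ± 0.24, adjusted p 0.0017). Its adjusted p was 0.35 without unstimulated replicate 1 and 0.0598 without IFNb replicate 1. In both genes unstimulated replicate 1 was far above the rest, and IFNb replicate 3 lay within the range of the other unstimulated libraries. Ankrd37, a hypoxia target, was at 8.68, 2.02 and 2.11 CPM and 0, 1.34 and 1.58 CPM (-2.85 ± 0.78; adjusted p 0.57 without unstimulated replicate 1 and 0.31 without IFNb replicate 1). Summed over the list, the unstimulated libraries stood at 12250.0, 8925 and 8376 CPM and the IFNb libraries at 7124, 6484 and 8952 CPM. What set unstimulated replicate 1 apart was not tested. In other lines the list was also lower with IFNb. In Renca 19 of the 21 fell (median log2 change -0.73) and in MC38.7 6 fell (-0.19). In the mean of the other 7 lines 18 fell (-0.28), and without YUMMER1.7 also 18 (-0.31). None rose in any of these. Over all 16147 genes tested, 1101 fell in Renca, 2720 in MC38.7, 2969 in the mean of 7 and 3011 without YUMMER1.7.

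**Figure D2:**
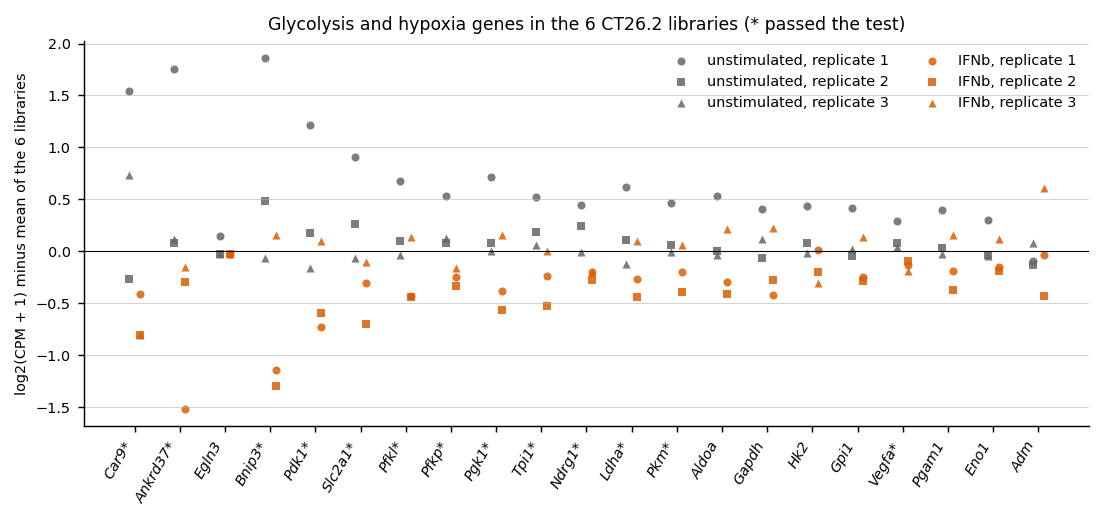
Log2(CPM + 1) of the 21 tested glycolysis and hypoxia genes minus the gene's mean over the 6 CT26.2 libraries (vertical axis), 1 symbol per library; grey is unstimulated, orange is IFNb, the shape is the replicate number and an asterisk marks the 13 genes that passed the test. Unstimulated replicate 1 is the highest library for all but 1 gene, and IFNb replicate 3 lies near the other unstimulated libraries.

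Proliferation genes showed small rises in 8 of 26, with a median log2 change of 0.21: Foxm1, a regulator of mitotic genes, went from 155, 135 and 118 CPM to 176, 204 and 232 CPM (0.55 ± 0.07) and Rrm2, a subunit of ribonucleotide reductase, from 135, 135 and 141 CPM to 203, 173 and 184 CPM (0.45 ± 0.08), with groups that lay apart. Without IFNb replicate 1 the count was 2, and with the 6 libraries fitted alone it was 1. Ccne2 (0.51 ± 0.13) and Birc5 (0.40 ± 0.12) were among the 8 and lost their calls without IFNb replicate 1 (adjusted p 0.44 and 0.064); Ccne2 also lost it without unstimulated replicate 1 (0.22), and Birc5 without IFNb replicate 3 (0.31), unstimulated replicate 2 (0.16) or replicate 3 (0.21). The p53 feedback gene Mdm2 fell from 652, 709 and 618 CPM to 532, 506 and 438 CPM (-0.41 ± 0.07), while the p53 target Cdkn1a did not pass (-0.21 ± 0.08). Mdm2 was the one call among 14 p53 targets and CDK inhibitors by edgeR. DESeq2 called 3 of the 14 lower and limma-voom 1, and neither called any higher. At an unadjusted p under 0.05 in edgeR, 5 were lower and 1 higher. In the list of 13 complement genes C1ra rose (0.68 ± 0.14; adjusted p 0.19 without IFNb replicate 1), and in the NF-kB list of 17 Csf1 rose. In the matrix list of 23 Thbs1 rose (0.57 ± 0.17; 0.79 without IFNb replicate 1, and 0.096 to 0.11 without any 1 unstimulated library), as did Col4a2 (0.25 ± 0.07; 0.54 without IFNb replicate 1, 0.094 and 0.13 without unstimulated replicates 1 and 3). In the ribosome biogenesis list of 16 Npm1 fell (-0.20 ± 0.06), a call that held without IFNb replicate 3 and was lost without each of the other 5 libraries (adjusted p up to 0.14). None of 20 cholesterol synthesis genes and none of 14 genes of the unfolded protein response passed by edgeR, DESeq2 or limma-voom; at an unadjusted p under 0.05, 4 and 0 did. None of the 13 mitochondrially encoded genes passed by any of these tools; their share of counts was 2.31 to 4.12% with IFNb and 3.45 to 4.31% without, with IFNb replicate 1 the lowest.

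IFNg and IFNb were compared directly in CT26.2, and 158 genes differed by at least 2-fold (0.979% of genes tested), 147 higher with IFNg (0.91%) and 11 lower (0.0681%). At any size 2.51% of genes were higher with IFNg and 1.5% lower. The GTPase list was higher with IFNg in 18 of 19 members (median log2 difference 2.97), MHC class I presentation in 25 of 28 (1.29) and the antiviral effectors in 26 of 50 (0.39), with 1 antiviral gene lower. Gbp3 stood at 833, 864 and 876 CPM with IFNg, 2.32 ± 0.07 above IFNb in log2 units, and Irf1 at 328, 337 and 340.0 CPM, 3.55 ± 0.08 above. Cd274 stood at 296, 317 and 334 CPM (3.01 ± 0.09). The 3 IFNg libraries of each were far above the IFNb libraries. The 5 largest differences were the complement gene C4b (IFNb 1.88, 1.07 and 0.526 CPM, IFNg 168, 186 and 198 CPM; difference 7.02 ± 0.18), Mpeg1, which encodes the pore former perforin-2 (6.70 ± 0.30), Apol6 (6.41 ± 0.29), Gbp10 (5.01 ± 0.29) and Gbp11 (4.96 ± 0.37). None of these 5 passed for IFNb against unstimulated cells in edgeR. Oas1a (IFNg 381, 408 and 367 CPM; 0.09 ± 0.09, adjusted p 0.74), Usp18 (-0.17 ± 0.09), Mx1 (0.39 ± 0.22) and Trim30d (-0.18 ± 0.13) did not pass between the cytokines. Lower with IFNg than with IFNb by the rule were the retroviral restriction gene Fv1 (-1.66 ± 0.39), the carboxylesterase gene Ces2g (-1.17 ± 0.28), the glycosyltransferase gene Galnt2 (-1.15 ± 0.26) and the acyl-CoA synthetase gene Acsbg1 (-1.03 ± 0.19).

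Before stimulation CT26.2 already carried antiviral and GTPase genes at summed levels above those of unstimulated MC38.7 and Renca. The antiviral list summed to 7243 to 8037 CPM in unstimulated CT26.2, 3960.0 to 4132 CPM in Renca and 1247 to 1274 CPM in MC38.7; with IFNb it summed to 10410.0 to 11340.0, 7009 to 7293 and 9011 to 10100.0 CPM. The GTPase list summed to 465 to 516 CPM in unstimulated CT26.2 and 22.5 to 23.1 CPM in unstimulated MC38.7, and with IFNb to 974 to 1103 and 1193 to 1367 CPM. The class I list did not stand above MC38.7: it summed to 5553 to 5868 CPM in unstimulated CT26.2 and 5688 to 5925 CPM in unstimulated MC38.7. Against the mean of the other 7 unstimulated lines, 36.8% of all genes tested were higher in CT26.2 and 28.8% lower. Of the lists, 45 of 50 antiviral effectors were higher and 2 lower (median log2 difference 2.70), 18 of 19 GTPases were higher (2.67), 23 of 28 class I genes (1.14) and 19 of 25 sensors (2.03). With group sums under 3 counts set to 3, the medians were 2.51, 2.34, 1.13 and 1.77. Without YUMMER1.7 in the mean, 45, 18, 23 and 20 were higher, with medians of 3.37, 3.47, 1.37 and 2.62. Oas1a was at 206 ± 10.3 CPM (SD, n = 3) unstimulated, and at 0.115 to 127 CPM in the other lines, with YUMMER1.7 the highest of them. Oasl2 was at 541 ± 36.6 CPM against 0.174 to 490.4 CPM and Usp18 at 267 ± 35.6 CPM against 0.38 to 246 CPM. In these 3 genes CT26.2 had the highest unstimulated mean of the 8 lines, next to YUMMER1.7 at 127 ± 11.2, 490.4 ± 35.03 and 246 ± 32.6 CPM; for Usp18 the gap was smaller than the SD of either line, and for Oasl2 it was smaller than both SDs added. Irf7 was at 248 ± 13.3 CPM against 0.235 to 285 CPM, rank 3 of the 8, and H2-D1 at 1287 ± 22.8 against 64.5 to 1027 CPM. Csf1 was at 1161 ± 13.1 CPM against 14.6 to 267 CPM. With IFNb in all lines, 31 of the 50 antiviral effectors were higher in CT26.2 than the mean of the other 7 and 15 lower (median 0.47), against 34.7% of all genes higher and 26.9% lower, and 3 GTPases were higher and 3 lower. Without YUMMER1.7 in the mean, 30 antiviral effectors were higher and 15 lower (median 0.61), and 7 GTPases were higher and 2 lower. Oas1a was then at 364 ± 29.8 CPM against 84.8 to 239 CPM, Irf7 at 543 ± 7.29 against 131 to 749 CPM, and Cxcl10 at 6.15 ± 3.34 against 7.76 to 455 CPM, the lowest mean of the 8 by less than its own SD.

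**Figure D3:**
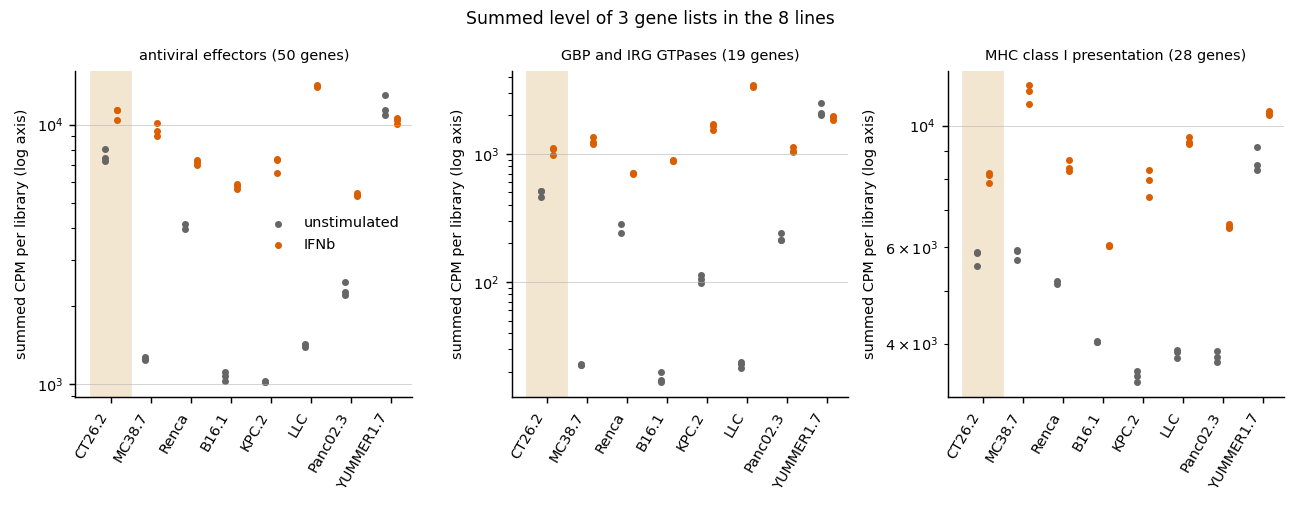
Summed CPM per library (vertical log axis) of the antiviral effectors, the GBP and IRG GTPases and the MHC class I presentation genes in the 8 lines, grey unstimulated and orange with IFNb, 1 point per library (2 for unstimulated Renca). CT26.2, shaded, starts at 7243 to 8037 CPM for the antiviral list and ends at 10410.0 to 11340.0 CPM, a smaller step than in MC38.7, while the unstimulated YUMMER1.7 libraries lie above their IFNb libraries in that panel.

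The change of interferon response genes with IFNb was smaller in CT26.2 than in the other colorectal line. In MC38.7 692 genes changed at least 2-fold (4.29% of genes tested), 534 higher (3.31%) and 158 lower (0.979%). The interaction test found 509 genes (3.15%) whose response differed by at least 2-fold, 123 with a higher response in CT26.2 (0.762%) and 386 with a lower one (2.39%). At any size the split was even, 1162 higher (7.2%) and 1173 lower (7.26%). A lower response was called for 45 of 50 antiviral effectors, 14 of 19 GTPases, 21 of 28 class I genes and 16 of 25 sensors. The median log2 change of the antiviral list was 4.76 in MC38.7 against 0.58 in CT26.2, and 4.78 against 0.55 with group sums under 3 counts set to 3. Ifi44 changed by 0.54 ± 0.08 in CT26.2 and 10.74 ± 0.18 in MC38.7, a difference of -10.20 ± 0.22 (adjusted p 1.4e-41). Irf7 changed by 1.12 ± 0.08 and 9.25 ± 0.17 (difference -8.12 ± 0.21). For class I the gap was smaller, H2-K1 changing by 0.88 ± 0.08 and 1.58 ± 0.08 (-0.70 ± 0.12). Of the 40 genes risen at least 2-fold in CT26.2, 32 (80%) also rose at least 2-fold in MC38.7, where they were 5.99% of the 534; of the 19 that fell, 2 (10.5%) fell and 3 rose at least 2-fold there. The change of Foxm1 with IFNb was higher than in MC38.7 by 0.55 ± 0.10 (adjusted p 3.2e-05).

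Against Renca, which shares the BALB/c genotype, the response differed in fewer genes: 61 differed by at least 2-fold (0.378% of genes tested), 32 higher in CT26.2 (0.198%) and 29 lower (0.18%). A lower response was called for 19 of 50 antiviral effectors (1.65% of all genes at any size), 2 of 19 GTPases, 4 of 28 class I genes and 6 of 25 sensors, and the median log2 change of the antiviral list was 0.88 in Renca. Ifit3 changed by 2.52 ± 0.14 in CT26.2 and 2.38 ± 0.17 in Renca, a difference of 0.14 ± 0.23 (adjusted p 0.93), and Oas1a by 0.81 ± 0.09 and 0.83 ± 0.10 (-0.02 ± 0.14, adjusted p 1). A difference that misses the threshold does not show that the lines respond alike. Tap1 responded less in CT26.2 (-0.77 ± 0.12, adjusted p 1.7e-05), as did Trim30d (-2.12 ± 0.36), while Cd274 responded more (0.63 ± 0.15, adjusted p 0.0088). Of the 40 genes risen at least 2-fold in CT26.2, 26 (65%) also rose at least 2-fold in Renca (23.4% of the 111 that rose so there, 0.687% of genes tested). Against the mean response of the other 7 lines 188 genes differed by at least 2-fold (1.16%), 18 higher (0.111%) and 170 lower (1.05%); without YUMMER1.7 in the mean these were 19 and 198. A lower response was called for 42 of 50 antiviral effectors (2.87% of all genes at any size) and 14 of 19 GTPases. MC38.7 shares the colorectal label with CT26.2, and Renca shares the BALB/c genotype. Unstimulated levels also differ between the lines, and the parts of genotype, tissue and unstimulated level in these differences were not tested.

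**Figure D4:**
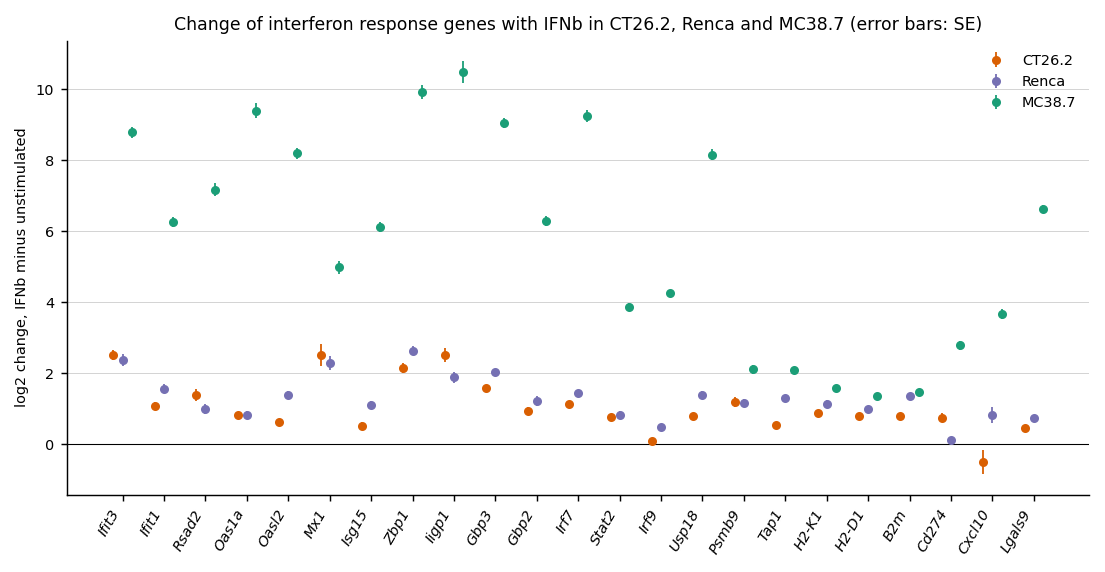
Log2 change with IFNb (vertical axis; points are edgeR estimates, bars are SE) of 23 interferon response genes in CT26.2 (orange), Renca (purple) and MC38.7 (green). For Irf7 the change is 1.12 in CT26.2, 1.43 in Renca and 9.25 in MC38.7; the class I genes H2-K1, H2-D1 and B2m lie closer together in the 3 lines.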

How the data were processed

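RNA sequencing counts per gene were taken from the table the authors deposited, which holds estimated counts in whole numbers for 35197 genes and 70 libraries. Per the submitters' processing notes the tools were Trimmomatic 0.36 and kallisto (version not given in the sources used here), with mm10 (GRCm38). Reads of near-identical genes are shared out by such estimates, and BALB/c reads were set against a C57BL/6 reference; the effect of this was not tested.

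All libraries were fitted together in 24 groups with edgeR 4.0.16 (R 4.3.3), TMM scaling, filterByExpr (16147 genes kept) and the quasi-likelihood test. Each log2 change is a fitted value, its SE is the change divided by the square root of F, and p-values were adjusted over all genes tested by Benjamini-Hochberg. Genes with an adjusted p below 0.05 were called; where stated, a 2-fold change was required too. CPM are counts scaled to the library total after TMM. The test was checked on simulated data with the same spread for every gene and with independent libraries. That check does not cover shifts of a whole library, such as that of unstimulated CT26.2 replicate 1 or of CT26.2 IFNb replicate 1. Alternatives were DESeq2 1.42.0, limma-voom 3.58.1, RLE size factors, other filters, the 6 libraries alone, a replicate block and each library left out. Leaving YUMMER1.7 out of the mean of lines was chosen after seeing the data.

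Named genes were the 20 largest rises and 15 largest falls (7 qualified) that were called, at least 2-fold, without overlap between groups and with more than 3 counts in each group. From each list up to 4 called and 2 uncalled members were named, and for the other comparisons the 5 largest differences in each direction; there the condition on overlap applies to IFNg against IFNb alone. The genes of the pathway were followed throughout, and Tgtp2, Ifi27l2a, Oas1g and similar relatives of named genes were named after their values were seen. A member of the signalling list is not reported here. The members and lists were chosen with earlier results of these data known. Promoter windows come from RefSeq, GRCm38.p6, and gene coordinates from the GENCODE annotation.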

Additional observations from a re-analysis of the deposited data

Results flagged for a closer look

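The change with IFNb in CT26.2 differed between lines by the interaction test (edgeR), for 123 genes higher and 386 lower by at least 2-fold against MC38.7, 32 and 29 against Renca, and 18 and 170 against the mean of the other 7 lines. All values below are differences in log2 change, CT26.2 minus the other line, with their SE.

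Against MC38.7 the response was higher for Acsm3 (3.47 ± 0.84), Kif21b (3.30 ± 0.96), Pcdhb15 (3.14 ± 0.98), Ccr10 (2.55 ± 0.79) and Upp2 (2.53 ± 0.70). These 5 genes stood at 0.206 to 0.636 CPM in unstimulated CT26.2, and none passed for IFNb against unstimulated cells in CT26.2 by edgeR; with 1 library left out, the change in CT26.2 ranged from -1.21 to 1.35 for Kif21b and from 0.0041 to 1.45 for Upp2. It was lower for the interferon-induced genes Ifi44 (-10.20 ± 0.22), Trim30a (-9.32 ± 0.29), Oas1a (-8.59 ± 0.27), Oas3 (-8.53 ± 0.24) and Ifi211 (-8.46 ± 0.37). The members of the second set were near 0 in unstimulated MC38.7, as with Oas1a at 0.224 CPM there and 206 CPM in unstimulated CT26.2.

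Against Renca the response was higher for Astl (2.71 ± 0.73), Mrc2 (2.24 ± 0.49), Abcb1a (2.02 ± 0.45), Ackr3 (1.98 ± 0.31) and Ier3 (1.67 ± 0.17), and lower for Ceacam1 (-3.33 ± 0.92), Phf11b (-2.41 ± 0.66), Ccl5 (-2.38 ± 0.59), Zfp965 (-2.38 ± 0.67) and C4b (-2.37 ± 0.53). Ccl5 fell in CT26.2 (-2.38) and did not pass in Renca (0.00). With any 1 of the 6 libraries left out, none of the genes with a higher response was called in CT26.2 itself. Their changes in CT26.2 then ranged from 0.11 to 1.05 for Astl, 0.055 to 0.32 for Mrc2 and -0.24 to 0.24 for Abcb1a. For Ackr3 the range was 0.44 to 0.90 and for Ier3 0.038 to 0.24. Ceacam1, Zfp965 and C4b were likewise not called in CT26.2 in any omission.

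Against the mean of the other 7 lines the response was higher for Ptk2b (1.65 ± 0.51), Slc22a18 (1.40 ± 0.41), Pradc1 (1.11 ± 0.24), Tmem17 (1.07 ± 0.33) and Mxd3 (1.06 ± 0.26), and lower for Oas1a (-5.19 ± 0.15), Oasl2 (-5.09 ± 0.13), Irf7 (-4.77 ± 0.12), Usp18 (-4.63 ± 0.13) and Cxcl10 (-4.27 ± 0.36). Oas1a, Oasl2 and Usp18 are among the genes whose unstimulated mean was highest in CT26.2 of the 8 lines, while Cxcl10 had rank 5 of the 8. Such genes were 2395 of the 16147 tested and 11 of the 50 antiviral effectors. The unstimulated CT26.2 libraries enter both this rank and the response, so the rank and the response are not independent of each other. The part of the starting level in these differences was not tested. Of the 6 omissions of 1 library, 0 gave a call in CT26.2 itself for Tmem17, 1 for Ptk2b, 2 for Mxd3, 3 for Pradc1 and 5 for Slc22a18.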

How the results depend on the processing

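IFNb replicate 3 had 1898464 counts, so changes of genes under a few CPM were least precise there. The main fit tested 16147 genes, the fit with no filter 27399 and the fit of the 6 libraries alone 11041. The count of genes changed at least 2-fold (59) was 133 with no filter on low counts and 32 with the 6 libraries fitted alone, with or without the replicate block; genes higher (40) were 91 with no filter, and genes lower (19) were 42 with no filter, 2 with the 6 libraries alone with or without the block, and 9 to 20 with 1 library left out, the lowest without unstimulated replicate 1 and 12 without IFNb replicate 1. Genes that rose at any size (318) were 100 with the 6 libraries alone, 96 with the block as well, and 179 to 295 with 1 library left out. Genes that fell (150) were 14, 13 and 92 to 203. For the response against Renca, 61 genes differed at least 2-fold, 97 by limma-voom and 154 with no filter; those higher (32) were 60 and 86, and those lower (29) were 68 with no filter. Against the mean of the other 7 lines, 18 were higher, 43 with no filter and 9 to 19 with 1 library left out, the lowest without unstimulated replicate 1. Between IFNg and IFNb, 158 differed, 255 with no filter; those lower with IFNg (11) were 21 by limma-voom, 75 with no filter and 8 to 15 with 1 library left out. No value named changed direction past its threshold. Same-numbered libraries did not deviate together in every pair (correlations 0.0839, -0.165 and 0.273 over 9078 genes, against -0.327 to 0.327 between libraries of other numbers), so the numbers were not taken to pair the samples; with the replicate block in the fit of all libraries, 56 genes changed at least 2-fold, 40 higher and 16 lower, 288 rose and 125 fell. The causes were not tested.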
